A study of Danio rerio with 24 samples.

Results

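The mercury response of the zebrafish liver that did not depend on the time of exposure was measured by setting all 12 arrays of HgCl2-treated fish against all 12 arrays of control fish, which are all 24 samples of the series. The effect was the mean of the 4 differences within time points, HgCl2 minus control at 8, 24, 48 and 96 h, with 3 arrays in each of the 8 groups. The HgCl2 fish were kept in water with 200 μg/L of HgCl2 and the control fish in water without it. Both were adult farm fish of 6 months to 1 year, and each array carried liver RNA pooled from 4 fish. The sex of the fish in a pool and the strain of the fish are not given in the sources used here. Liver RNA was labelled with Cy5 and hybridised beside a Cy3 reference that pooled total RNA of wild-type fish of both sexes. All arrays had the dyes the same way round.

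Inorganic mercury binds the thiol groups of proteins and of glutathione and is taken up by the liver. Hepatocytes make most plasma proteins, fold them in the endoplasmic reticulum, hold the enzymes that release glucose into the blood and break down foreign compounds. In fish they also make the egg yolk precursor vitellogenin under the control of oestrogen.

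A value below is the log2 ratio of liver over reference, and a difference is HgCl2 minus control in log2 units, ± the standard error (SE) of the fit. A probe was called when its Benjamini-Hochberg adjusted p from limma was under 0.05 over the 16340 probes tested. Of these, 5916 carry 1 gene symbol and stand for 5355 genes. A called probe was termed steady when each of its 4 time differences lay between 0.5 and 1.5 times their average. Whether fewer cells of a type or less RNA per cell lies behind a lower ratio cannot be told apart in whole liver.

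Several features of the arrays moved with the treatment. The median Cy5 signal of an array was 316 to 789 in HgCl2 and 253 to 902 in control arrays, with middle values of 560.5 and 357. For the Cy3 signal the middle values were 880.5 and 579, and for the Cy3 background 517 and 340. In Cy5 66.1% to 95% of the HgCl2 spots and 73.7% to 93.6% of the control spots lay above background, with middle values of 90.4% and 87.3%. The ranges of all these overlapped between the treatments. The Cy3 reference was meant to be the same on every array, but tested by itself it differed between HgCl2 and control arrays in 2741 probes (16.8%), 1085 higher and 1656 lower. Clustered on that channel into 2 sets, all 12 HgCl2 arrays fell with 4 controls (96 h replicates 1 to 3 and 48 h replicate 3), and the other 8 controls formed the second set. Cut into 4 sets instead, the same clustering put those 4 controls, the other 8 controls, 4 HgCl2 arrays (all of 8 h and 24 h replicate 1) and the other 8 HgCl2 arrays each in a set of their own. The 4 sets thus divided the arrays by treatment at every time, also at 96 h, so that they and the treatment cannot be told apart. The 2 sets did so only in part, with all arrays of 96 h in 1 set. A list of 12 ovary and egg genes also moved: its mean log ratio was -1.05 at the lowest, 0.43 at the median and 2.23 at the highest in HgCl2 arrays, against -1.55, -0.80 and 0.15 in controls, and 9 of the 12 were called higher, 8 of them also in Cy5 alone. Of 9 red blood cell genes 6 were called lower, with list means of -0.20, 0.10 and 0.20 in HgCl2 and 0.07, 0.62 and 0.82 in control arrays. In Cy5 alone 3 of these 6 were called and with the egg gene mean as a term in the model 2. All 5 genes of the exocrine pancreas were called lower, with list means of -1.81, -0.46 and 0.29 in HgCl2 and -1.07, 0.39 and 0.93 in control arrays. In Cy5 alone 3 of these 5 were called, and with the egg term 1. This fall was not even over time. The list medians of the differences were 0.67, -0.87, -0.92 and -2.06 in order of time, and none of the 5 genes had the same sign at all 4 times. Of 18 leukocyte genes 6 were called higher and 2 lower, with list means of -0.07, 0.17 and 0.71 in HgCl2 and -0.13, 0.05 and 0.21 in control arrays. Of 6 hepatocyte markers 3 were called higher and none lower, among them tfa and apoa1b, which were saturated in Cy5 on 11 and 12 of the HgCl2 and on all 12 of the control arrays and turned to -0.09 and -0.12 when arrays were centred on their medians instead of loess. What part these differences have in the results was not tested. Beside these lists, 957 of all 5355 genes were called higher (17.9%) and 784 lower (14.6%). Of the 957, 505 were also called in Cy5 alone and 375 with the egg term, and of the 784, 380 and 276. The ratio contains the Cy5 signal, so a Cy5 call in its direction, here and below, is not separate support.

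The average over 4 times called 5152 probes (31.5%), 2897 higher (17.7%) and 2255 lower (13.8%) in HgCl2. Cy5 tested alone called 5208 (31.9%), of which 2687 were among the probes called in the ratio. Of the 5152 calls of the ratio, 4170 had the same sign at all 4 times, as had 6225 (38.1%) of all probes. Steady probes numbered 1270 (7.77%), of which 814 were higher (4.98%) and 456 lower (2.79%). As genes, 273 of 5355 were steady and higher (5.1%) and 170 steady and lower (3.17%). A difference at a single time was called for 159 probes at 8 h (0.973%), 1771 at 24 h (10.8%), 1414 at 48 h (8.65%) and 2108 at 96 h (12.9%). Only 65 of the steady probes were called at each of the 4 times, and 604 (3.7%) were called at none of them, 337 higher and 267 lower. In the authors' value table with each array centred on its median such probes numbered 581, with 385 higher and 196 lower, but only 260 of them were among the 604. The 604, termed small shifts here, had a median size of 0.41 and reached 3.39, against a median of 0.85 for the other 666 steady probes. The median SE was 0.113 for the average and 0.226 for a single time.

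**Figure D1:**
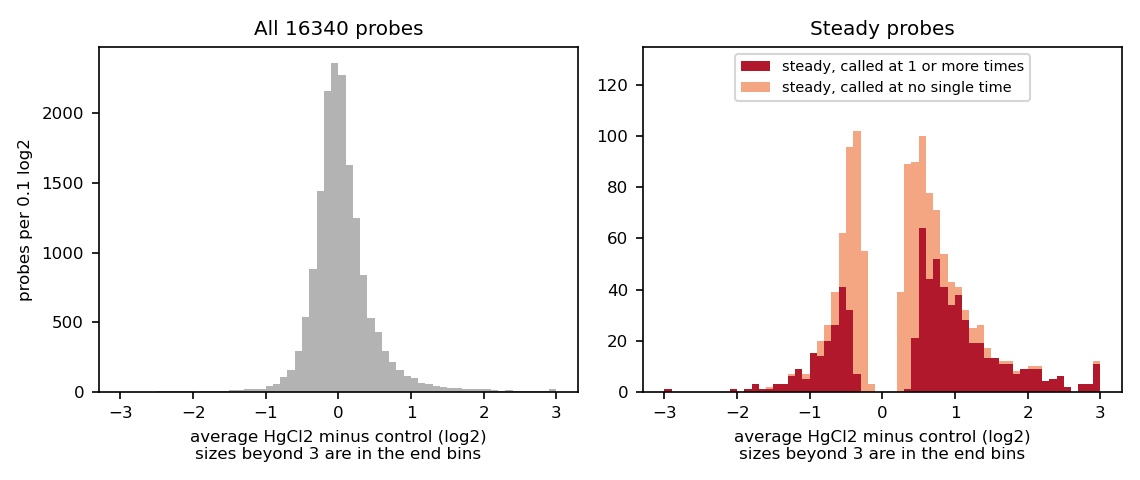
The panels show how many probes (vertical axis, per 0.1 log2) had a given average HgCl2 minus control difference (horizontal axis, log2), on the left for all 16340 probes and on the right for the 1270 steady ones. Shifts called at no single time (light bars, 604 probes) fill the part of the right panel nearest to 0.

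How well 3 times told of the fourth was read by leaving 1 time out, so that the probes were chosen on 18 arrays and looked up on 6 others. Of 3779 probes called without the 24 h arrays, 93.5% had the same sign at 24 h, with a median ratio of the 24 h difference to the average of the other times of 1.02, and of all probes 72.6% had the same sign. Without the 48 h arrays it was 95.5% of 3507 (all probes 74.7%, median ratio 1.00), and without the 96 h arrays 91.3% of 3477 (all probes 70%, median ratio 0.949). The 8 h arrays stood apart. Of 5271 probes called without them, 75.9% had the same sign at 8 h (all probes 61.9%), with a median ratio of 0.354, and 2.35% were called at 8 h in that direction. Probes called in an average of 3 times but at none of them singly also kept the sign least often at 8 h, for 1550 of 2211. At 24 h it was kept for 92.8% of 1479, at 48 h for 91.8% of 1178 and at 96 h for 87.9% of 1595. Called in each of the 4 averages over 3 times were 2300 of the 5152 probes called in the full average, 927 of the 1270 steady probes and 261 of the 604 small shifts. These sets were chosen on all 4 times, so these counts are not held-out ones.

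At all 4 times the 3 HgCl2 arrays lay apart from the 3 controls in the direction of the average for 420 probes (2.57%), of which 307 were steady. The stricter split, all 12 HgCl2 arrays above or all below all 12 controls, held for 230 probes (1.41%), 173 above (1.06%) and 57 below (0.349%), and 180 of these were steady. The genes described next are mainly, by rule, the steady genes with the greatest rises and falls and the leading genes of each gene list. Other list members are named beside them outside that rule: hyou1, syvn1, atf6, socs3a, epas1a, hif1ab, pdk4, cyp2y3 and adh5. These are not among the 145 named genes whose calls were followed through the alternatives.

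The largest steady rise among named genes was that of hpxb, which encodes hemopexin, the plasma protein that binds free haem. Its log ratio was -0.24 at the lowest, 2.22 at the median and 3.45 at the highest in HgCl2 arrays, against -2.71, -2.04 and -0.78 in controls. Every HgCl2 array thus exceeded every control, and 3 HgCl2 arrays were saturated in Cy5. The measured difference was 3.92 ± 0.36 (adjusted p = 9.08e-08), with 3.10, 3.96, 4.1 and 4.52 in order of time, and saturation makes it a lower bound. With the egg gene mean as a term it was 3.87. The gene selenop2, a paralog of selenoprotein P, behaved alike. It had 0.50, 1.56 and 2.34 in HgCl2 and -1.14, -0.81 and 0.13 in control arrays, again without overlap, a difference of 2.21 ± 0.18 (adjusted p = 2.44e-08). Its 4 time differences were 1.69, 2.5, 2.09 and 2.58. Ceruloplasmin (cp), a copper-carrying ferroxidase of plasma, was higher by 1.59 ± 0.19 (adjusted p = 2.75e-06), and 7 of 12 HgCl2 arrays exceeded all controls. The gene c3a.1, a paralog of the central complement component, had 1.11, 2.42 and 3.22 in HgCl2 and -0.42, 0.08 and 1.69 in control arrays, with Cy5 saturated on 7 HgCl2 arrays and a measured difference of 2.12 ± 0.20. Its time differences were 1.1, 2.3, 2.21 and 2.88, with the 8 h value near the lower edge of the band. Saturation limits these sizes, so that its place in the band is not secure. The paralogs c3a.3 and c3a.2, at 1.9 and 1.3 on average, were not steady, with 0.71 and 0.17 at 8 h.

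**Figure D2:**
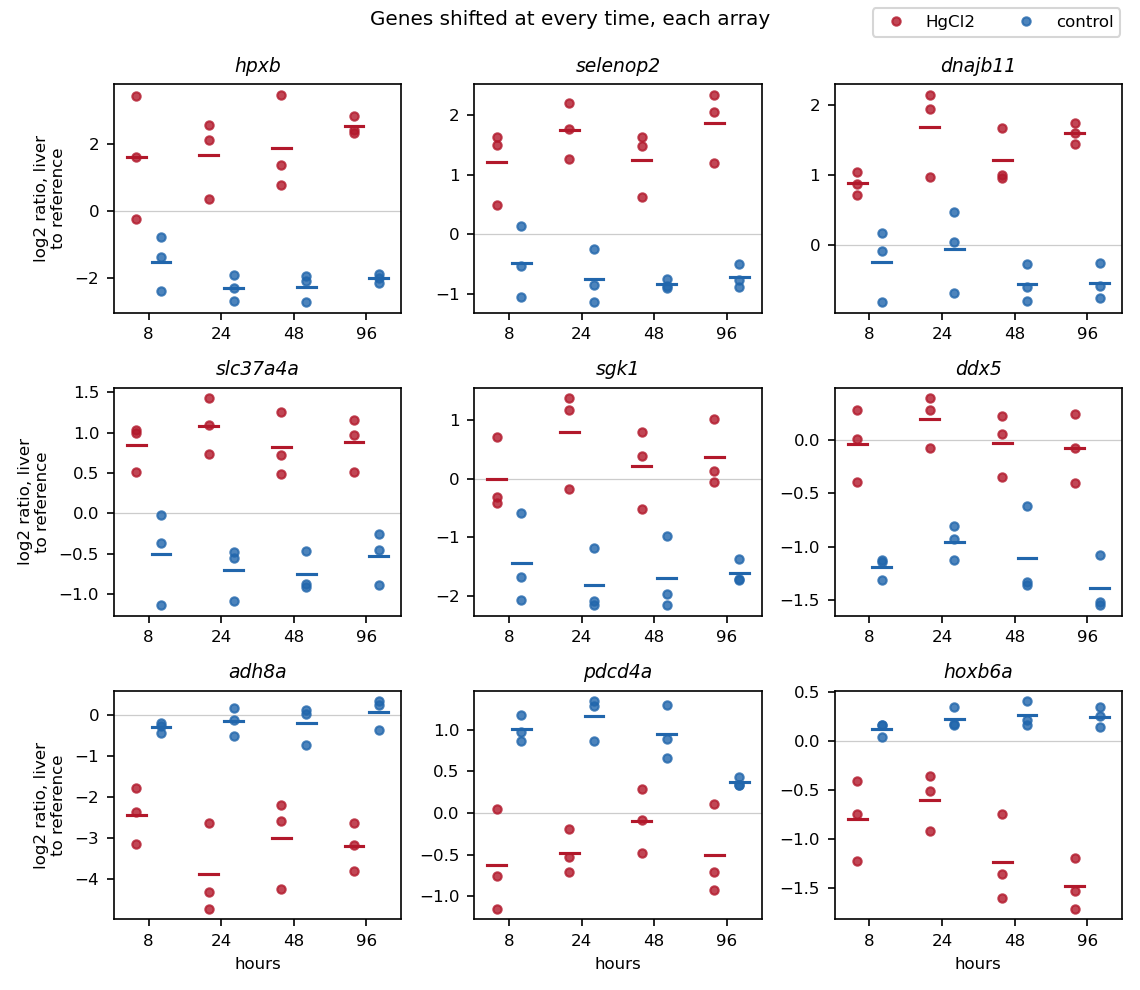
Log2 ratio of liver to reference (vertical axis) on each of the 24 arrays by hours of exposure (horizontal axis) for 9 steady genes, HgCl2 in red at the left and control in blue at the right of each time, with a bar at the mean of 3 arrays. In each panel the 12 HgCl2 arrays lie wholly above (upper 6 genes) or wholly below (lower 3 genes) the 12 controls.

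Genes of protein folding and quality control in the endoplasmic reticulum moved in 1 direction. Of 24 measured, 14 were called higher and 1 (atf6) lower, beside 17.9% and 14.6% of all genes, and the median of the list was 0.54 against -0.0022 for all genes. The steady members, all higher, were dnajb11, edem1, sdf2l1, hyou1 and syvn1. The co-chaperone gene dnajb11 had 0.71, 1.25 and 2.15 in HgCl2 and -0.82, -0.43 and 0.47 in control arrays, without overlap, a difference of 1.69 ± 0.16 (adjusted p = 1.08e-07). Its differences were 1.12, 1.74, 1.77 and 2.14 in order of time. For sdf2l1, a partner of the chaperone BiP in mammals, the values were -0.07, 1.12 and 2.67 in HgCl2 and -1.58, -0.98 and -0.0033 in control arrays, and 11 of 12 HgCl2 arrays exceeded all controls. The difference was 2.1 ± 0.20, but the reference channel of its probe was lower in HgCl2 arrays by 0.56 (adjusted p = 0.0287), and Cy5 alone gave 1.54. The sdf2l1 probe was not above background in the reference on 19 arrays, and in Cy5 on 6 control arrays and 1 HgCl2 array. The lectin-like gene edem1, which takes misfolded glycoproteins to degradation, was higher by 1.47 ± 0.13, of which 0.74 was in Cy5 and the rest in a reference lower by 0.73. The chaperone hyou1 was higher by 2.05 ± 0.22 and syvn1, the ubiquitin ligase of that degradation route, by 1.07 ± 0.15, both without a call in the reference channel. Of the 14 called higher, 12 were also called in Cy5 alone and 11 with the egg gene mean as a term.

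Signalling genes of the interferon and NF-kappa B pathways were called higher for 10 of 16 and lower for 1, beside 17.9% and 14.6% of all genes. The 5 steady ones were all higher, beside 5.1% of all genes. The Janus kinase gene jak1, which passes on interferon and interleukin signals, had 0.14, 0.92 and 2.02 in HgCl2 and -0.77, -0.51 and -0.07 in control arrays. The groups did not overlap, and the difference was 1.47 ± 0.14 (adjusted p = 1.59e-07). A second probe for jak1 was higher by 0.79 ± 0.19 but not steady, with 0.11, 1.14, 0.94 and 0.96 by time. Its feedback inhibitor socs3b was higher by 1.97 ± 0.23, with 11 of 12 HgCl2 arrays above all controls. The paralog socs3a, at 1.12 ± 0.20, gave only 0.33 in Cy5, beside a reference lower by 0.79 (adjusted p = 0.000444). Of the 10 called higher, 5 were called in Cy5 alone, 8 with the egg term and 4 in the reference channel. The leukocyte genes mpeg1.1 and laptm5 were higher by 0.75 and 0.45 on average and by 1.87 and 1.29 at 96 h, and the part of leukocytes in these rises was not tested. They come from a list of 18 with 6 called higher and 2 lower, of which 2 and 1 were called in Cy5 alone. There mpeg1.1 was called at 0.68, and laptm5, at 0.12, was not. Without the 96 h arrays neither gene was called in the ratio, at 0.37 and 0.17 (adjusted p = 0.0621 and 0.337). The mpeg1.1 probe was not above background in the reference on 21 arrays, and in Cy5 on 4 HgCl2 and 5 control arrays. Beta-2-microglobulin (b2m), the light chain of class I antigen-presenting molecules, had 0.25, 1.68 and 2.29 in HgCl2 against -0.71, 0.02 and 0.23 in controls, and differed by 1.51 ± 0.12 (adjusted p = 2.09e-08). Its differences were 0.92, 0.97, 1.89 and 2.25 in order of time, so it was steady by the rule while the values at 48 and 96 h were the higher ones. Of 8 acute phase genes 6 were called higher and none lower, beside 17.9% and 14.6% of all genes. The saturated tfa is 1 of the 6, and only 2 of the 6 were called in Cy5 alone and 4 with the egg term.

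Enzymes and transporters of glucose release were called higher for 7 of 12 and lower for 1, beside 17.9% and 14.6% of all genes. Of the 12, 4 were steady and higher and 1 steady and lower, beside 5.1% and 3.17%. The list as a whole was not even over time, with medians of -0.07, 1.19, 0.73 and 0.87 in order of time. The same sign at all 4 times was seen for 6 of the 12 and for 2099 of all 5355 genes. The gene of the glucose-6-phosphate transporter of the endoplasmic reticulum, slc37a4a, had 0.49, 0.99 and 1.43 in HgCl2 and -1.14, -0.51 and -0.01 in control arrays. No array overlapped, the difference was 1.53 ± 0.14 (adjusted p = 1.1e-07), and the 4 times gave 1.36, 1.79, 1.58 and 1.42. For pck1, which encodes the enzyme that commits oxaloacetate to glucose synthesis, the values were -3.29, -1.97 and -0.12 in HgCl2 and -5.27, -4.31 and -2.53 in control arrays. The arrays of each single time did not overlap, 9 of 12 HgCl2 arrays exceeded all controls, and the difference was 2.45 ± 0.33, or 5.45-fold. Alanine aminotransferase (gpt) was higher by 1.14 ± 0.12 on one probe and by 1.02 ± 0.13 on a second, both steady. In contrast, fbp1b, a fructose-1,6-bisphosphatase of the same route, was lower by 1.15 on the log2 scale (SE 0.21), and 9 of 12 HgCl2 arrays lay below all controls. All 7 genes called higher and fbp1b were also called in Cy5 alone, and none of the 12 genes was called in the reference channel. With the egg term 5 of the 7 and fbp1b were called.

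Of 17 genes on the hypoxia inducible factor (HIF) list 10 were called higher and 1 lower, and 7 were steady, all of them higher. Over all genes 17.9% were called higher and 14.6% lower, and 5.1% were steady and higher. The gene igfbp1a, which fasting and low oxygen induce and whose product binds insulin-like growth factors, rose by 2.70 ± 0.24 (adjusted p = 6.81e-08). Its values were -1.74, -0.76 and 0.40 in HgCl2 and -4.54, -3.43 and -1.51 in control arrays, with 11 of 12 HgCl2 arrays above all controls. Its time differences were 2.81, 3.68, 1.62 and 2.71. The alpha subunit paralog hif1al was higher by 1.44 ± 0.16, epas1a by 1.5 ± 0.20, hif1ab by 0.77 ± 0.13 and arnt2, a dimer partner of such subunits, by 0.89 ± 0.11. Lactate dehydrogenase A (ldha) was higher by 1.09 ± 0.15 without overlap of the 12 and 12 arrays, with 0.54 in Cy5. For pdk4, a kinase that shuts pyruvate out of the citrate cycle, the 0.81 ± 0.16 of the ratio came with 0.15 in Cy5 and a reference lower by 0.66. Of the 10 called higher, 7 were called in Cy5 alone and 7 with the egg term.

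Hormone and growth signals included the kinase gene sgk1, which glucocorticoids induce. It had -0.52, 0.26 and 1.38 in HgCl2 and -2.17, -1.72 and -0.59 in control arrays, without overlap, a difference of 1.99 ± 0.23 (adjusted p = 2.21e-06). The insulin receptor gene insra was lower by 0.88 on the log2 scale (SE 0.11), with all 12 HgCl2 arrays below all controls. Its reference channel was itself lower by 1.92 in HgCl2 arrays (adjusted p = 0.000312), so that the ratio and the channels gave very different sizes. The oestrogen receptor gene esr1 fell by 1.68 on the log2 scale (SE 0.25, adjusted p = 2.88e-05), with -2.11, -1.17 and 0.91 in HgCl2 and -0.18, 0.60 and 1.66 in control arrays. All but 1 of the HgCl2 arrays lay below all controls. Of 42 nuclear receptors 15 were called lower and 3 higher, beside 14.6% and 17.9% of all genes. Yet 7 of the 15 were called in the reference channel, 7 in Cy5 alone and 2 with the egg term. The retinoid receptor gene rxrbb is a case of the first kind, lower by 0.63 on the log2 scale without overlap of arrays, but with -0.01 in Cy5 and a reference higher by 0.62 (adjusted p = 0.0211).

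Among enzymes that process foreign compounds, alcohols and aldehydes, 9 of 21 were called lower and 3 higher, beside 14.6% and 17.9% of all genes. All 9 falls were also called in Cy5 alone and 6 with the egg term. The largest steady fall of any named gene was that of the alcohol dehydrogenase gene adh8a. It had -4.74, -2.91 and -1.77 in HgCl2 and -0.74, -0.15 and 0.34 in control arrays, so that no arrays overlapped. The difference was -3.0 ± 0.25 (adjusted p = 3.08e-08), or 8.02-fold lower, and -2.15, -3.75, -2.83 and -3.29 by time. The cytochrome P450 gene cyp1a, the main target of the aryl hydrocarbon receptor, had -2.13, -0.85 and -0.37 in HgCl2 and -0.40, 0.49 and 0.74 in control arrays. It fell by 1.3 on the log2 scale (SE 0.17), with 11 of 12 HgCl2 arrays below all controls. A second cyp1a probe gave -1.46 ± 0.14, with the differences at 96 h (-0.65) and at 24 h (-2.22) outside the band. The members fmo5, aldh3a2a, cyp2y3 and adh5 were also steady and lower but called at no single time.

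Single lipid genes were called in both directions. The fatty acid desaturase gene fads2 had -1.85, -1.01 and -0.03 in HgCl2 and -0.19, 1.17 and 1.73 in control arrays, and fell by 2.01 on the log2 scale (SE 0.19). In Cy5 alone the fall was 1.57 and was not called (adjusted p = 0.1). Sterol carrier protein 2 (scp2a) fell by 1.05 on the log2 scale (SE 0.12), and agpat2, an acyltransferase of triglyceride synthesis, by 0.88 (SE 0.13). Higher were acacb, an acetyl-CoA carboxylase, by 1.63 ± 0.21, and abca1a, which loads cholesterol onto lipoproteins, by 1.25 ± 0.15. For abca1a the 12 HgCl2 arrays ranged from -0.63 to 0.78 and the 12 controls from -1.98 to -0.64, without overlap. Over the 24 genes of fatty acid and triglyceride synthesis 6 were called higher (25%) and 3 lower (12.5%), beside 17.9% and 14.6% of all genes, and the list median was -0.0081. In Cy5 alone 3 of the 6 and 1 of the 3 were called.

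Other steady genes with all 12 HgCl2 arrays apart from all 12 controls had roles in RNA, the cytoskeleton and metal uptake. The RNA helicase gene ddx5 had nearly the same difference at each time, with 1.15, 1.15, 1.08 and 1.3 by time and an average of 1.17 ± 0.11 (adjusted p = 1.92e-07). Its HgCl2 arrays lay between -0.41 and 0.39 and its controls between -1.54 and -0.62. The actin gene actb1 was higher by 1.74 ± 0.19, and cfl1, which severs actin filaments, by 1.2 ± 0.11 with a reference lower by 0.49 (adjusted p = 0.0165). Of 61 genes of actin, adhesion and cytoskeleton 22 were called higher (36.1%), 9 of them steady, and 7 lower (11.5%), none of them steady. Over all genes 17.9% were called higher and 14.6% lower. Steady and higher were 5.1% of all genes, and steady and lower 3.17%. In Cy5 alone 17 of the 22 and 2 of the 7 were called, and with the egg term 13 and 3. The translation inhibitor pdcd4a fell by 1.29 on the log2 scale (SE 0.14), with -1.15, -0.50 and 0.29 in HgCl2 and 0.34, 0.88 and 1.34 in control arrays. The homeobox gene hoxb6a fell by 1.24 on that scale (SE 0.11), with -1.71, -1.05 and -0.36 in HgCl2 and 0.04, 0.17 and 0.40 in control arrays. The divalent metal transporter gene slc11a2 fell by 0.62 on the log2 scale (SE 0.08) without overlap, with -0.79, -0.02 and 0.14 in HgCl2 and 0.32, 0.49 and 0.73 in control arrays. In Cy5 alone it was at -0.40 and not called (adjusted p = 0.069). A second probe for it gave -0.29 ± 0.12 and was not called (adjusted p = 0.0655). Most of its list went the other way: of 12 metallothionein and metal handling genes 7 were called higher and 3 lower, with a median of 0.35. In Cy5 alone 4 of the 7 and 2 of the 3 were called, and with the egg term 2 and 2. Further large rises were those of slc16a9a, a monocarboxylate transporter (2.36 ± 0.30, no overlap), phf20l1, a reader of methylated lysines (2.88 ± 0.39, reference lower by 0.58), and the unnamed locus si:ch1073-126c3.2 (2.44 ± 0.33, reference lower by 1.03). The remaining large falls were ssuh2.2 (-1.78 ± 0.10, no overlap, reference higher by 0.74) and the nucleolar gene rsl1d1 (-1.07 ± 0.15, 5 of 12 HgCl2 arrays below all controls).

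**Figure D3:**
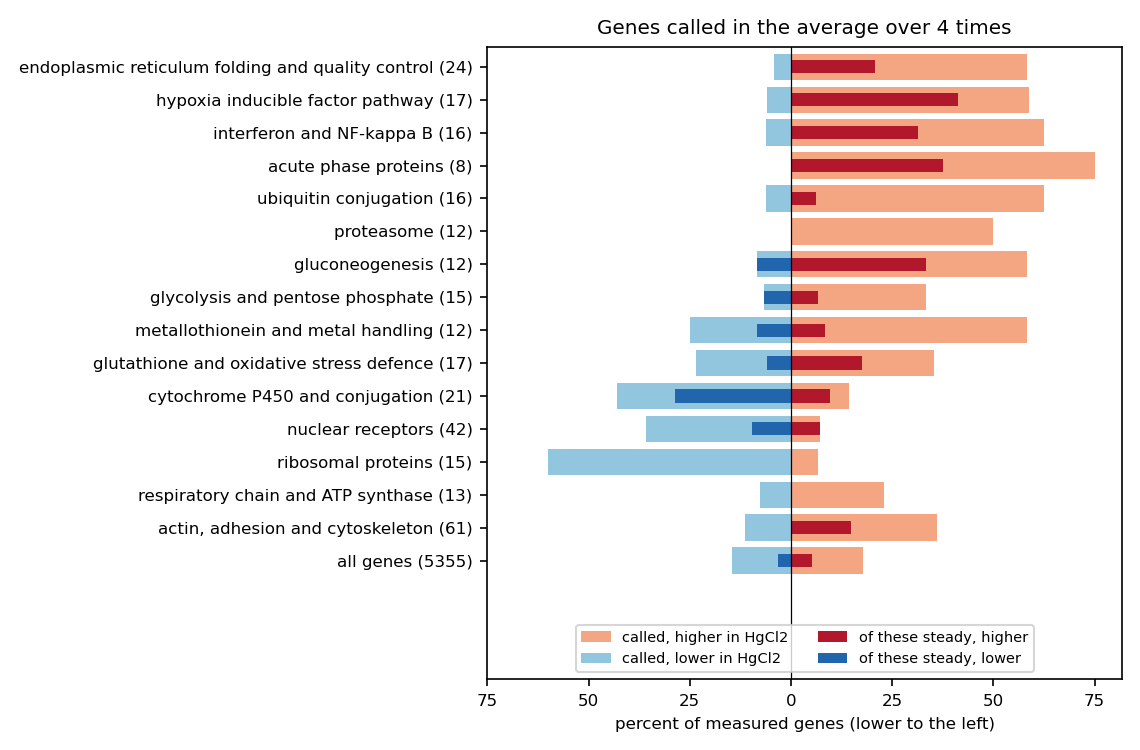
Percent of the measured genes of each list (number in brackets) that were called higher in HgCl2 (right of 0) or lower (left of 0) in the average over 4 times, with the steady ones as darker, narrower bars and all 5355 genes in the lowest row. Of the 17 hypoxia pathway genes 7 are steady and higher, beside 5.1% of all genes. Ribosomal and proteasome genes have long bars but no steady member, which lists this small may also show at the share of all genes.

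Some groups that moved held no steady gene. Of 15 ribosomal protein genes 9 were called lower and 1 higher, and of 12 proteasome genes 6 were called higher and none lower. Over all genes 17.9% were called higher and 14.6% lower. Neither list held a steady member, beside 5.1% of all genes steady and higher and 3.17% steady and lower. At these shares lists this small may hold none. In Cy5 alone 4 of the 9 and 3 of the 6 were called, and with the egg term 6 and 3. Their medians by time were -0.12, -0.19, -0.38 and -0.44 for the ribosomal proteins and -0.04, 0.48, 0.50 and 0.55 for the proteasome, so that the 8 h value was the smallest in both. Of 13 genes of the respiratory chain and ATP synthase 3 were called higher (23.1%) and 1 lower (7.69%), near the shares of all genes, and none had the same sign at all 4 times. Of the 3, 1 was called in Cy5 alone and 0 with the egg term.

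Of the 604 probes that no single time called, none separated all 12 HgCl2 arrays from all 12 controls, and 13 (2.15%) separated the 3 and 3 arrays at each time. The 16 named here are the 8 higher and the 8 lower with the smallest adjusted p in the average. The carnitine palmitoyltransferase gene cpt1ab, whose product lets fatty acids into mitochondria, had 0.03, 0.34 and 0.76 in HgCl2 and -0.61, -0.19 and 0.43 in control arrays. Only 4 of 12 HgCl2 arrays exceeded all controls, and the difference was 0.55 ± 0.11 (adjusted p = 0.000626), with 0.54, 0.62, 0.46 and 0.57 by time. The kinetochore scaffold gene knl1 was higher by 0.64 ± 0.13, with 10 of 12 HgCl2 arrays above all controls, and susd6 by 0.78 ± 0.16, with 7 of 12. A second probe for susd6 was at 0.01 ± 0.17. The first was not above background in the reference on 21 arrays, and in Cy5 on 3 HgCl2 and 8 control arrays. These 3 rises were also called in Cy5 alone and stayed called with the egg gene mean as a term, at 0.74, 0.83 and 0.93.

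The small falls included several metabolic genes. The fatty aldehyde dehydrogenase gene aldh3a2a had -0.46, -0.09 and 0.26 in HgCl2 and -0.0039, 0.33 and 0.45 in control arrays, with 8 of 12 HgCl2 arrays below all controls and the 3 and 3 arrays apart at each of the 4 times. Its difference was -0.38 ± 0.08 (adjusted p = 0.000878), or 1.3-fold. The flavin monooxygenase gene fmo5 was lower by 0.76 on the log2 scale (SE 0.15), and suclg2, a succinate-CoA ligase subunit of the citrate cycle, by 0.38 (SE 0.08). For mcmdc2as, whose symbol is that of an antisense transcript, the difference was -0.81 ± 0.16. These 4 falls were also called in Cy5 alone. The histone demethylase gene kdm7ab had -0.77, -0.40 and -0.12 in HgCl2 and -0.30, 0.04 and 0.27 in control arrays, a difference of -0.45 ± 0.09, and tpgs1, a subunit of the tubulin polyglutamylase, one of -0.34 ± 0.07. Neither of these was called in Cy5 alone, with -0.31 and -0.20 there. With the 2 sets of arrays found in the reference as a term, fmo5, kdm7ab and suclg2 were no longer called, at -0.63, -0.41 and -0.35 (adjusted p = 0.0677, 0.0549 and 0.058). With the egg term suclg2 was at -0.36 and also not called (adjusted p = 0.0504).

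**Figure D4:**
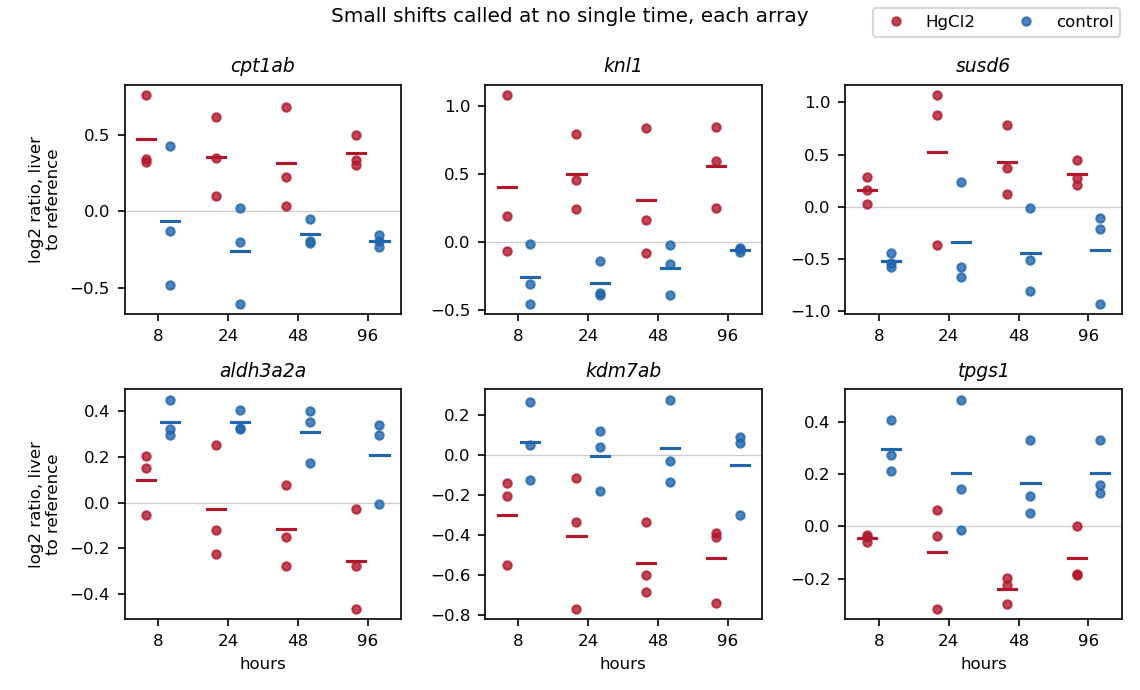
Log2 ratio of liver to reference (vertical axis) on each array by hours of exposure (horizontal axis) for 6 steady genes that no single time called, HgCl2 in red at the left and control in blue at the right of each time, with a bar at the mean of 3 arrays. The means keep 1 direction at the 4 times while single arrays overlap, as for cpt1ab, where 4 of 12 HgCl2 arrays exceed all controls.

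For 5 further small shifts the sizes in the channels and in the ratio lay far apart. The ratio of timp2a, an inhibitor of matrix metalloproteinases, differed by -0.57, -0.54, -0.57 and -0.56 by time, the most even of all named genes. Its Cy5 signal was higher by 0.27 (not called), and its reference higher by 0.83 (adjusted p = 0.0131). With the egg term the ratio was at -0.45 (adjusted p = 0.0688). The ratio of chuk, the IKK alpha kinase of the NF-kappa B pathway, was higher by 0.47 ± 0.09, while its Cy5 signal was lower by 0.13 on the log2 scale (not called) and its reference lower by 0.60 (adjusted p = 0.0335). The reference was also lower in HgCl2 arrays for ginm1 (by 0.72, ratio 1.27 ± 0.26), which was at 0.55 in Cy5 and not called there. For the splicing factor gene srsf11, with a ratio of -0.41 ± 0.09, Cy5 was called at -1.03 (adjusted p = 3.21e-05) beside a reference lower by 0.62. For ube2na, a ubiquitin-conjugating enzyme, the 0.76 ± 0.14 of the ratio came with 0.31 in Cy5 (not called), and the egg term gave 0.53 (adjusted p = 0.0885). Over all steady probes 748 of 1270 were called in Cy5 alone in the direction of the ratio, and 634 of these were not called in the reference, 476 higher and 158 lower. Among the 604 small shifts 202 met both conditions, 139 higher and 63 lower. The reference was called for 294 steady probes, for 215 of them opposite to the ratio. Over all 16340 probes Cy5 alone was called for 5208 (31.9%) and the reference for 2741 (16.8%), in either direction. The ratio is Cy5 over Cy3, so a choice made on the ratio by itself favours reference calls opposite to it. It likewise favours Cy5 calls in the direction of the ratio.

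**Figure D5:**
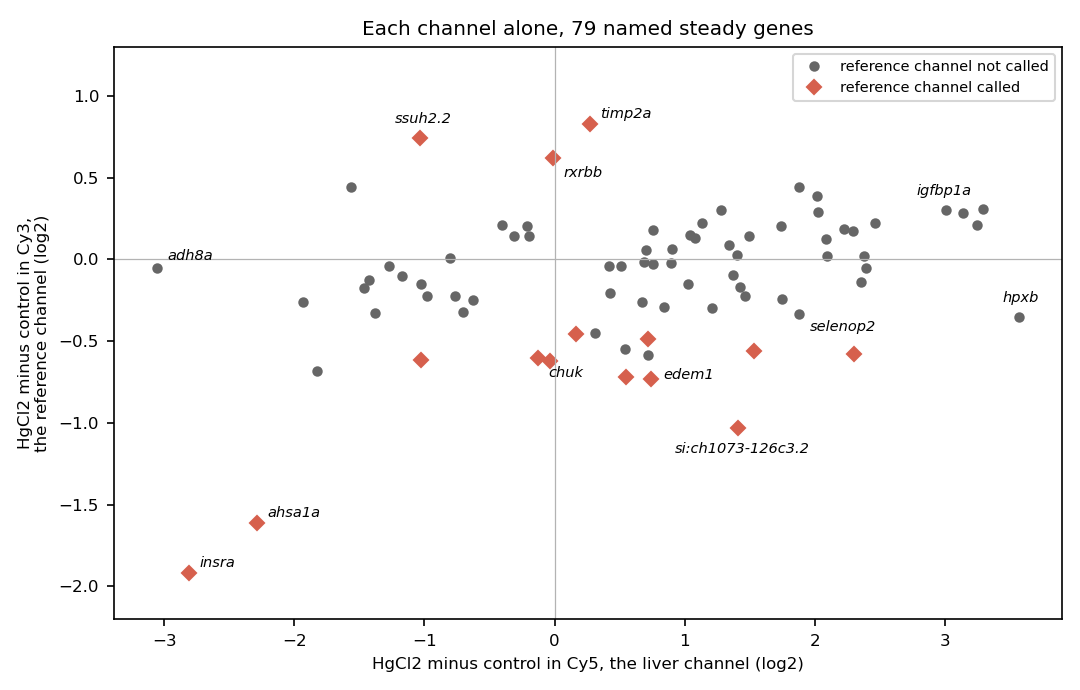
HgCl2 minus control in the Cy5 liver channel (horizontal axis, log2) and in the Cy3 reference channel (vertical axis, log2) for the 79 named steady genes, with diamonds for the 15 whose reference was called. The genes hpxb and adh8a, far from 0 along the horizontal axis, had no call in the reference, whereas timp2a, rxrbb and chuk lie near 0 in Cy5, and insra and ahsa1a are low in both.

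Several of the largest steady rises were egg genes or shared their pattern over arrays. The egg envelope genes zp3a.1 and zp3 were higher by 2.85 ± 0.52 and 2.5 ± 0.49, and the oocyte gene zar1l, among the small shifts, by 1.37 ± 0.27. The egg gene mean was highest on HgCl2 96 h replicate 3 (2.23), HgCl2 48 h replicate 1 (1.96) and HgCl2 48 h replicate 3 (0.69), and lowest among HgCl2 arrays on 8 h replicate 1 (-1.05). The rises of aspm, a spindle protein gene (3.03 ± 0.60), nr3c1, the glucocorticoid receptor gene (2.99 ± 0.56), and uevld (2.04 ± 0.41) were no longer called once that mean was a term in the model, at 0.40, 0.47 and 0.17 with adjusted p of 0.547, 0.327 and 0.636. For zp3a.1, zp3 and zar1l, of which the first 2 are themselves in the mean, that model gave 0.47, 0.15 and 0.18. In Cy5 alone uevld and zar1l were called at 2.22 and 1.4, with no call in the reference. The log ratio of nr3c1 was -2.17, 1.62 and 4.55 in HgCl2 and -3.4, -1.99 and 1.2 in control arrays, a spread of over 4 log2 units within each treatment. The other probes of nr3c1 and aspm did not show the rise: those for nr3c1 gave -0.29 ± 0.21 and -0.29 ± 0.11, and that for aspm -0.31 ± 0.12. The gene stm, which was put on the egg gene list and is in the mean, stayed called with the mean as a term, at 0.99 (adjusted p = 0.000174). Whether it marks egg tissue in these samples was not tested. It had 0.15, 0.39 and 0.89 in HgCl2 and -1.01, -0.32 and 0.01 in control arrays, without overlap, at 0.92 ± 0.10 (adjusted p = 1.21e-06).

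The rule for a steady gene cut through a continuum of values. Just inside the lower edge of the band were flot1b, whose lowest time difference was 0.50 of its average of -0.37, and ssuh2.2, and just outside were dlx3b and cdk2. Just inside the adjusted p were atoh8 (-0.34 on average, adjusted p = 0.0467) and abhd10b (-0.29, adjusted p = 0.0497), and just outside were lhx1b (0.43, adjusted p = 0.0544) and gfus.2 (0.29, adjusted p = 0.055). A change of the effect between times was called for 64 probes (0.392%), and 52 of them were called in the average. Of these the intermediate filament gene prph had 0.66, 1.93, 2.64 and 3.49 by time (adjusted p of the change = 0.000877). The steady gene ssuh2.2 was also among the 64, with -0.89, -1.58, -2.02 and -2.61.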

How the data were processed

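The arrays held 16512 spotted oligonucleotides, each read as a scanner intensity: the authors deposited median foreground and background per spot and channel, with no normalization or filter per the file headers. Their log2 value table, as deposited, holds log ratios with 1 constant per array and was used as an alternative. Background was corrected with normexp (offset 50) and each array fitted by loess, in which 172 spots of beta-actin had no weight. The model in limma 3.58.1 (R 4.3.3) held 8 group means with 16 residual degrees of freedom, and its 4 differences within times were averaged. Each channel was also tested alone after loess and Aquantile. A spot was above background at 2 background SDs, and saturated at 65535. The steps were tested on simulated data. Symbols came from the platform annotation, 1 of them updated through RefSeq. Spots with several symbols (75) or none (10349) stay unnamed. A gene was read from its probe of highest mean intensity. GEO's labels call the arrays biological replicates. The named genes were the 10 steady genes with the largest rises and the 10 with the largest falls, the 8 higher and 8 lower small shifts of smallest adjusted p, up to 3 called genes of each list, and 4 genes of changing effect. Members, rules and gene lists were chosen with earlier results of these data known. Alternatives varied background correction, normalization, value table, dim probes, pairing, model, time points and arrays. Promoter motifs and probe sequences are not analysed here. Figures were drawn with matplotlib 3.10.9 in Python 3.11.15.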

Additional observations from a re-analysis of the deposited data

Results flagged for a closer look

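For 9 of the 145 named genes the effect of HgCl2 differed between the 4 times by the F test of the model, adjusted over all probes. Over all 16340 probes it was called for 64 (0.392%). The 2 shares cannot be compared, since 4 of the named genes were chosen for their small p in this same test. Cut into 4 sets, the reference channel divided the arrays by treatment at every time, and it also moved with time. A change of effect with time and a change of set thus cannot be told apart. The vitellogenin gene vtg3 (adjusted p = 0.000877) was lower on average, but its Cy5 signal was saturated on 11 of 12 controls, so no size is given. The peripherin gene prph (0.000877) rose by 0.66, 1.93, 2.64 and 3.49 in order of time. The differences of chst6 (0.00118) were -0.61, -2.1, -2.92 and -4.64, those of tmem266 (0.00198) -0.73, -1.97, -2.83 and -4.21, and those of hdr (0.0311) -0.49, -1.78, -2.16 and -2.88. The reference of tmem266 was itself higher by 1.04. The gene ssuh2.2 (0.0346) was steady by the band of 0.5 to 1.5 and still changed, with differences of -0.89, -1.58, -2.02 and -2.61. The proteasome activator psme1 (0.0166) differed by -0.07 at 8 h, and by 2.42 and 2.01 at 48 and 96 h, the pancreas gene sycn.2 (0.0128) by 0.70, -0.98, -1.05 and -2.06, and the macrophage gene mpeg1.1 (0.0101) by -0.43, 0.73, 0.82 and 1.87.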

How the results depend on the processing

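The number of calls in the average kept within 1.5 times of 5152 under every other background correction, scaling, model and test planned, and lay between 4656 and 5346 when single arrays were left out (without HgCl2 48 h replicate 1 and HgCl2 24 h replicate 1). Steady probes then numbered 1066 to 1428, the small shifts 507 to 664 and the calls in the reference channel 2256 to 3021. A replicate block gave 4984 calls, 1237 steady probes and 605 small shifts. The main model did not treat the replicate numbers as pairs. After group means were taken off, same-numbered arrays of a time correlated at -0.0322 to 0.189. Of the 12 HgCl2 arrays, 9 correlated best with the control of their own number among the 3 controls of their time. Whether the numbers pair the samples is thus not settled. Among the named genes the block changed 1 call, that of apoa1b. Like counts did not mean like probes: of the 604 small shifts, 260 recurred in the authors' value table centred per array, 239 without background correction and 301 with array weights. The count of steady probes rests on the definition. Without the 8 h arrays it was 3092 and the small shifts 1419, without the 96 h arrays there were 912 small shifts, with a wider band around the average the steady were 2255, and with the same sign at 4 times and no band 4170. With the same sign and no change between times at an unadjusted p of 0.05 the counts were 3682 and 1800. Counting an unadjusted p under 0.05 at a time as a call left 169 small shifts. Other alternatives were added after the data were seen. The 2 sets of arrays in the reference channel as a term gave 2838 calls. That model had 1 effect for all times, so the differences by time were those of the main model. By these, 720 of its calls lay in the band, and 150 of the 720 were called at no single time. The mean of the egg genes as a term gave 2160 calls, 857 steady probes and 389 small shifts. Cy5 alone gave 790 steady probes and 351 small shifts, of which 232 and 32 were those of the ratio. Calls also made in Cy5 and not in the reference numbered 2136, with 634 steady and 202 small shifts. The cause of these changes was not tested. Of the 145 named genes, 88 kept their direction and call under every alternative. The sign turned in Cy5 alone for chuk (-0.13), timp2a (0.27), ube2v2 (-0.10), ndufs1 (-0.17) and fbxw11b (-0.0349). It also turned for the saturated tfa and apoa1b under median centring (-0.0872 and -0.12), in the authors' value table (-0.0708 and -0.15) and in that table centred per array (-0.0669 and -0.15). Saturated spots and spots near background limit the sizes given.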
